A study of Mus musculus with 2 samples.

Results

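The genes described here make, break down and sense prostaglandins, and they were followed across the cell types of chimeric mouse lungs. They are the cyclooxygenases Ptgs1 and Ptgs2, the terminal synthases Ptgis, Ptges and Ptgds, the breakdown enzyme Hpgd, and the receptors Ptgir and Ptger4. All 8 were found by symbol among the 32285 genes of the deposited matrices. C57Bl mice had received a transplanted suspension of single lung cells carrying the red reporter tdTomato, and 6 months later the lungs of 3 of these chimeric mice were dissociated with enzymes and pooled. Live cells without the leukocyte marker CD45 were sorted, and those with the reporter gave the donor library, whereas those without it gave the recipient library. Both libraries therefore came from the same pool of 3 lungs, in which the mice cannot be told apart, and they differ in the origin of the cells. The matrices held 0 features named for tdTomato, so the sort could not be checked on its own transcript. Each group was 1 library, so no test between donor and recipient cells was possible, and every interval given is a 95% interval for counting error only.

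Prostaglandins are short-lived lipid signals made from arachidonic acid, which phospholipases release from membranes. Cyclooxygenases turn it into prostaglandin H2, from which separate synthases make prostacyclin (prostaglandin I2), prostaglandin E2, prostaglandin D2 or thromboxane A2. The lung vessels are known both for making prostacyclin, which relaxes vessels and restrains platelets, and for removing prostaglandins of the E series from the blood, by uptake into endothelial cells and oxidation there.

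The donor library held 6319 barcodes with 37997269 UMIs (a UMI, or unique molecular identifier, tags 1 captured transcript), and the recipient library held 3784 barcodes with 26201315 UMIs. The libraries shared 816 barcodes. In 728 of these the donor copy was over 5-fold the smaller, with a median of 6.26% of the UMIs of the recipient copy, and such smaller copies were left out. After a filter on genes, UMIs and mitochondrial share, 4765 donor cells (median 6263 UMIs) and 3279 recipient cells (median 6484 UMIs) were used. Of these, 3969 donor cells and 2869 recipient cells passed a gate on marker UMIs for 1 of 14 cell types, and each name below means cells like that type. General capillary-like cells (1894 donor and 269 recipient), aerocyte-like cells, the gas-exchange capillary type (1617 and 623), arterial-like cells (189 and 52) and venous-like cells (178 and 110) had at least 50 cells in both libraries. The recipient library alone had at least 50 lymphatic-like (73), alveolar type 1-like (169), pericyte-like (523), alveolar fibroblast-like (718), adventitial fibroblast-like (141) and myofibroblast-like cells (142). In each of these groups at least 8 of the type's own markers stood 2-fold or more above the library's other gated cells. The gates chose the cells by these same markers, so this is no independent check of the names. Levels are given as CPM, the UMIs of a gene per 1000000 UMIs, both summed over the gated cells of a library, and they show RNA, not enzyme activity or lipid.

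The 2 cyclooxygenases had different patterns over the cell types. Ptgs1, the constitutive form, was present in most endothelial types, in fibroblast types and in alveolar type 1-like cells. Ptgs2, the form induced by growth signals and inflammation, was nearly confined to venous-like cells among the 4 endothelial types held by both libraries, with a far lower level in adventitial fibroblast-like cells. Their promoters are shown because the 2 genes catalyse the same step and differ in where their RNA was seen. Promoters were found for 7 of the 8 genes in RefSeq (GRCm38.p6), all but Ptgis. The 250 bases before the start of Ptgs1 are chr2:36230176-36230425 on the plus strand, those before Ptgs2 are chr1:150099781-150100030 on the plus strand, and the 30-base window just after the Ptgs2 start is chr1:150100032-150100061. Capitals mark letters found in a search of both strands.
Ptgs1, before the start: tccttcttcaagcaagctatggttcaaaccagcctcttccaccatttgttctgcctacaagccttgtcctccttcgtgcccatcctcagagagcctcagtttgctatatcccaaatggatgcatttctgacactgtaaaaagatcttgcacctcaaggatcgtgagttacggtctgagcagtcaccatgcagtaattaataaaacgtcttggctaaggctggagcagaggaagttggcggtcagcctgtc
Ptgs2, before the start: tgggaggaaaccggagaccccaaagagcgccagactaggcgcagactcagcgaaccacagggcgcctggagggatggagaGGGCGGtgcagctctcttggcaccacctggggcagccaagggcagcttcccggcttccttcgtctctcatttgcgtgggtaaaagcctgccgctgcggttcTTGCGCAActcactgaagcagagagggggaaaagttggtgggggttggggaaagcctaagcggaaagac
Ptgs2, after the start: gagtcaccactaCGTCACGTGgagtccgct

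The letters searched were TATAAA (the core promoter box), TTGCGCAA (C/EBP palindrome), CGTCA (core of the cyclic AMP response element), CACGTG (E-box) and GGGCGG (GC box). In Ptgs2, TTGCGCAA begins 69 bases before the start, and 0.164% of 32851 RefSeq promoters hold it in the same 250-base window. GGGCGG begins 170 bases before the start, and 32.7% of promoters hold it. CGTCA begins 14 bases and CACGTG 17 bases after the start, and these matches overlap; 20.8% and 7.15% of promoters hold them in the whole 300-base window. None of the 5 was found in the 250 bases before Ptgs1. A match describes the letters and is not a binding site that was measured here.

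Ptgs1 (chromosome 2, 36230426 to 36252272, mm10, plus strand) was highest in venous-like cells of both libraries. Its level there was 230 CPM in the donor library (interval 207 to 255, 361 UMIs) and 245 CPM in the recipient library (213 to 279, 222 UMIs). It was 71.9 CPM in donor and 53.6 CPM in recipient general capillary-like cells, and 53.8 CPM in donor and 50.5 CPM in recipient aerocyte-like cells. Venous-like cells thus stood 3.198-fold above the next type in the donor library and 3.31-fold above the next in the recipient library, with intervals that excluded equality. Arterial-like cells were low, at 4.40 CPM from 5 UMIs in the donor library and 14.5 CPM from 5 UMIs in the recipient library. Outside the endothelium, recipient myofibroblast-like cells had 74.0 CPM, alveolar type 1-like cells 42.4 CPM and alveolar fibroblast-like cells 37.4 CPM. Alveolar type 2-like cells were too few for a comparison. In 19 recipient ones Ptgs1 had 90.7 CPM (62.1 to 128, 32 UMIs), with 59.4% of the UMIs in 3 cells. In 4 donor ones it had 17 UMIs, of which 15 were in 1 cell. From the second to the sixth place in the recipient order, neighbouring types were not apart beyond counting error. Pericyte-like cells were at the bottom with 1.08 CPM, 3 UMIs in 523 cells. The share of cells with a Ptgs1 UMI was 77.0% of donor and 75.5% of recipient venous-like cells (38.1% and 43.6% with each cell thinned to 2000 UMIs), against 0.574% of recipient pericyte-like cells at a median depth of 5039 UMIs, where venous-like cells had 7936.5 and 7698. Platelets also carry Ptgs1, and the summed level of 4 platelet markers (Pf4, Ppbp, Gp9 and Itga2b) was 4.46 CPM in donor and 17.6 CPM in recipient venous-like cells.

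Ptgs2 (chromosome 1, 150100031 to 150108227, mm10, plus strand) was seen at 273 CPM in donor venous-like cells (248 to 300, 429 UMIs) and at 790 CPM in recipient venous-like cells (733 to 850, 717 UMIs). Of all Ptgs2 UMIs in the cells used, 92.1% of the donor library's and 70.0% of the recipient library's lay in the gated venous-like cells. Venous-like cells were 3.74% of the donor and 3.35% of the recipient cells used. The rest of the donor cells were nearly all endothelial, unlike those of the recipient library. No gate used Ptgs2, and it was among the 10 genes that stood furthest above the other gated cells in venous-like cells of both libraries. In the other 3 endothelial types held by both libraries the level was between 0.524 and 0.879 CPM in the donor library and between 0.208 and 3.87 CPM in the recipient library. Recipient adventitial fibroblast-like cells, which surround larger vessels and airways, had 77.9 CPM (64.5 to 93.2), with UMIs in 33 of 141 cells. Recipient myofibroblast-like cells had 16.7 CPM and alveolar fibroblast-like cells 8.54 CPM, and the 3 highest cells held 81.3% and 73.8% of those UMIs. Lymphatic-like cells had 0 UMIs in 73 cells, which allows a share of cells with a UMI of up to 4.11%. In aerocyte-like cells, 0.495% of donor and 0.161% of recipient cells had a Ptgs2 UMI at median depths of 9097 and 7605, against 27.0% and 52.7% of venous-like cells (16.5% and 40.9% after thinning).

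**Figure D1:**
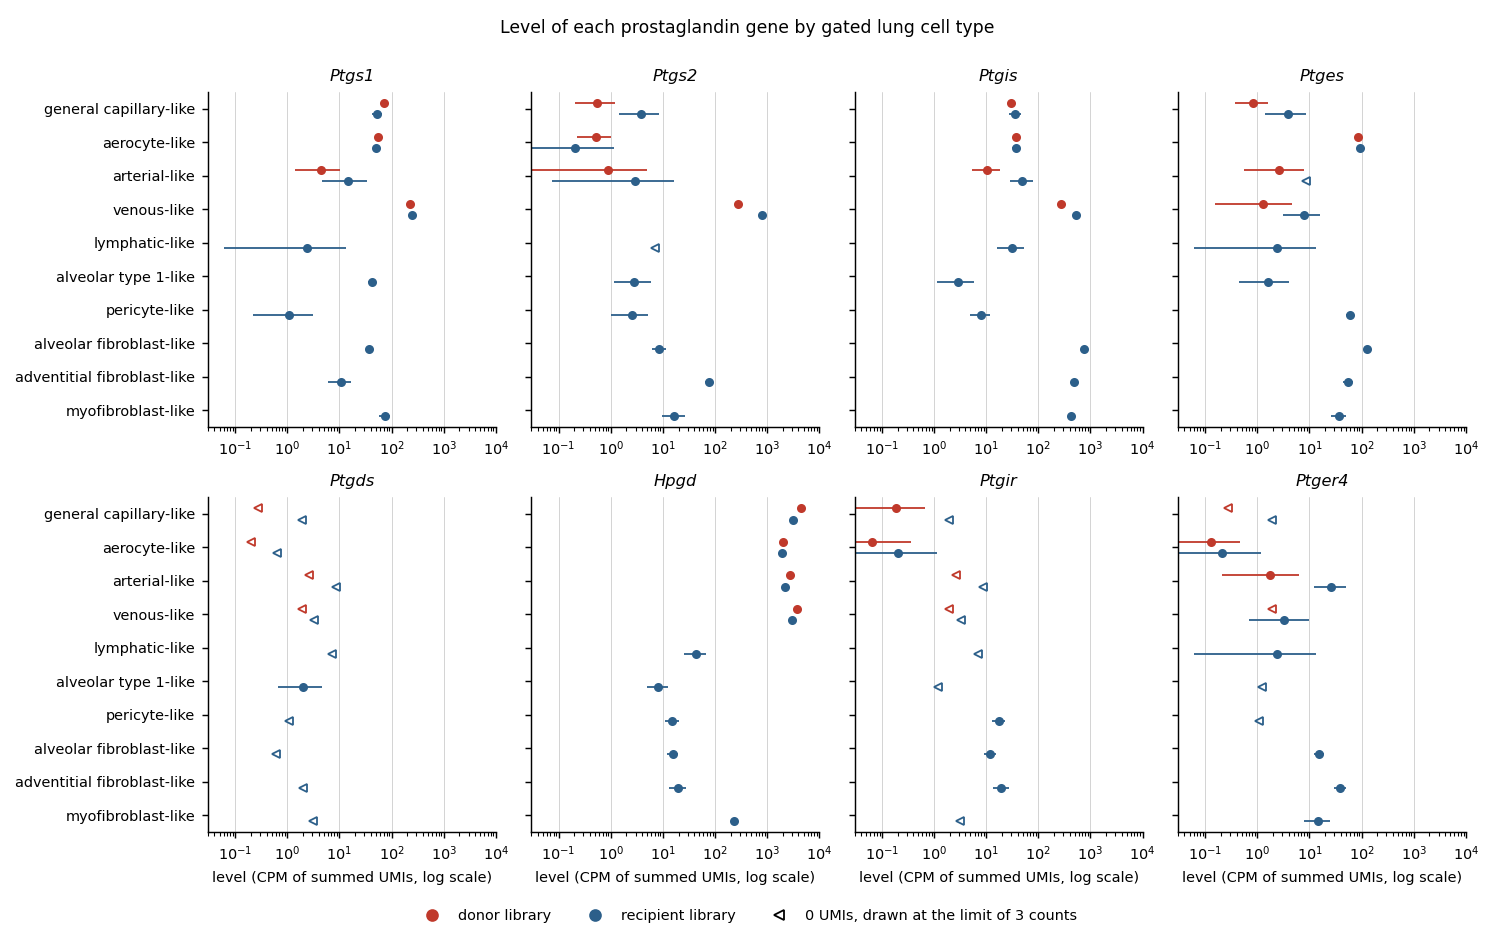
Level of each gene, in CPM of summed UMIs on a log scale, in every gated type with at least 50 cells; red is the donor library (above), blue the recipient library, bars are 95% counting intervals, and open triangles mark 0 UMIs drawn at the limit of 3 counts. Hpgd lies between 1896 and 4461 CPM in the 4 endothelial types of both libraries, whereas Ptgs2 reaches 273 and 790 CPM in venous-like cells and at most 77.9 CPM elsewhere.

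The 3 terminal synthases had different patterns over the cell types, though Ptgis and Ptges were both highest in alveolar fibroblast-like cells in the recipient library. Ptgis, prostacyclin synthase, was highest in fibroblast types and venous-like cells; Ptges, the inducible synthase of prostaglandin E2, in aerocyte-like cells, alveolar fibroblast-like cells and pericyte-like cells; Ptgds, a synthase of prostaglandin D2, was almost absent from all of them. Ptgis (chromosome 2, 167191805 to 167240604, mm10, minus strand) was at 277 CPM in donor venous-like cells (252 to 304) and 520 CPM in recipient venous-like cells (474 to 569). In the recipient library alveolar fibroblast-like cells led with 764 CPM (739 to 788), and 93.6% of those cells had a UMI (70.6% after thinning). Adventitial fibroblast-like cells had 474 CPM and myofibroblast-like cells 428 CPM. Venous-like, adventitial fibroblast-like and myofibroblast-like cells followed each other without a step beyond counting error, and the next type, arterial-like cells, was 8.66-fold lower than the last of them. The capillary types were low and alike, with 29.7 CPM in donor and 36.1 CPM in recipient general capillary-like cells and 37.4 and 37.2 CPM in donor and recipient aerocyte-like cells. Pericyte-like cells, the mural cells of the capillaries, had 7.94 CPM, and 3.06% of them had a UMI. Of the Ptgis UMIs in the cells used, 96.8% of the donor library's and 12.6% of the recipient library's came from cells with endothelial markers, while 82.4% of the recipient library's came from cells with mesenchymal markers. Cells with endothelial markers were 4586 of the 4765 donor cells used and 1281 of the 3279 recipient cells used. Those with mesenchymal markers were 58 and 1612, so these UMI shares are not comparable between the libraries. Ptgis overlaps 1110018N20Rik and Gm14291 on the opposite strand. The sources used here do not say whether counting used the strand, so it is not known here whether reads of the 3 genes were kept apart. For scale, 1110018N20Rik had 15 donor and 111 recipient UMIs.

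Ptges (chromosome 2, 30889471 to 30929863, mm10, minus strand) set the 2 capillary types apart. It was at 84.8 CPM in donor aerocyte-like cells (80.2 to 89.5, 1295 UMIs) and 93.3 CPM in recipient aerocyte-like cells (84.9 to 102, 449 UMIs). General capillary-like cells had 0.831 CPM in the donor library and 3.87 CPM in the recipient library, from 9 and 6 UMIs. The share of cells with a UMI was 46.3% of donor and 42.1% of recipient aerocyte-like cells (15.1% and 14.5% after thinning), against 0.475% and 2.23% of general capillary-like cells at median depths of 5435 and 5477. In the recipient library alveolar fibroblast-like cells were highest with 127 CPM (117 to 137), 1.36-fold above aerocyte-like cells. Of the 361 alveolar fibroblast-like cells with a Ptges UMI, 96.4% also had a Ptgis UMI, as did 90.8% of the 357 without one. Pericyte-like cells had 58.8 CPM, adventitial fibroblast-like cells 54.3 CPM and myofibroblast-like cells 36.5 CPM, and each of these was within counting error of the next. Among 45 donor pericyte-like cells, too few for a comparison, Ptges had 13 UMIs, or 53.2 CPM. Venous-like cells, the type with most Ptgs2, had 1.27 CPM in the donor library (2 UMIs) and 7.71 CPM in the recipient library (7 UMIs). Ptgds (chromosome 2, 25466709 to 25470046, mm10, minus strand) had 1 UMI in the donor cells used and 29 UMIs in 6 recipient cells, of which 28 lay in cells with epithelial markers. It had 0 UMIs in all 4 endothelial types of both libraries.

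Hpgd (chromosome 8, 56294585 to 56321043, mm10, plus strand) encodes 15-hydroxyprostaglandin dehydrogenase, which starts the breakdown of prostaglandins. It was abundant in the endothelium of the blood vessels and low in every other type held in numbers. General capillary-like cells had 4461 CPM in the donor library (4422 to 4501) and 3113 CPM in the recipient library (3026 to 3203). Venous-like cells had 3801 CPM in the donor library and 2993 CPM in the recipient library. Arterial-like cells had 2790 and 2238 CPM and aerocyte-like cells 2012 and 1896 CPM in donor and recipient cells. The order of the 4 types was the same in both libraries, and only the step between recipient general capillary-like and venous-like cells, 1.04-fold, was within counting error. That first place depended on the scaling, since venous-like cells led the recipient library when each cell was weighted equally or thinned. Lymphatic-like cells, the other endothelial type, had 42.5 CPM, with 83.3% of the UMIs in 3 cells. Myofibroblast-like cells had 231 CPM (202 to 264) and a UMI in 58.5% of cells, against 8.77% of alveolar fibroblast-like cells at nearly equal median depths (6569 and 6614.5 UMIs), and 31.7% against 3.23% after thinning. Levels in alveolar type 1-like, pericyte-like, alveolar fibroblast-like and adventitial fibroblast-like cells were between 8.07 and 19.6 CPM. A UMI of Hpgd was found in 99.0% of donor and 92.2% of recipient general capillary-like cells, against 7.65% of recipient pericyte-like cells at median depths of 5435, 5477 and 5039.

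Receptor transcripts lay mostly in cells with mesenchymal markers, gated to a type or not, which held 92.6% of the recipient library's Ptgir UMIs and 83.5% of its Ptger4 UMIs. Cells with mesenchymal markers were 1612 of the 3279 recipient cells used. Ptgir encodes the prostacyclin receptor (chromosome 7, 16906490 to 16910905, mm10, plus strand). It had 19.6 CPM in recipient adventitial fibroblast-like cells (13.2 to 28.0, 30 UMIs), 17.7 CPM in pericyte-like cells (13.1 to 23.4, 49 UMIs) and 11.8 CPM in alveolar fibroblast-like cells (8.96 to 15.3, 58 UMIs). The 4 endothelial types together had 3 donor UMIs and 1 recipient UMI. Myofibroblast-like cells had 0 UMIs in 142 cells, which allows a share of up to 2.11%. Ptger4 encodes the EP4 receptor of prostaglandin E2 (chromosome 15, 5206661 to 5244187, mm10, minus strand). It was highest in recipient adventitial fibroblast-like cells with 39.3 CPM (29.96 to 50.5), a UMI in 27.0% of cells, 5.0% after thinning. Alveolar fibroblast-like cells had 15.3 CPM and myofibroblast-like cells 14.6 CPM, while pericyte-like cells had 0 UMIs in 523 cells, which allows a share of up to 0.574%. In arterial-like cells Ptger4 had 1.76 CPM in the donor library (2 UMIs in 1 cell) and 26.2 CPM in the recipient library (9 UMIs in 3 cells), too few UMIs for a comparison. The 3 highest types, adventitial fibroblast-like, arterial-like and alveolar fibroblast-like cells, followed each other without a step beyond counting error. With every shared barcode left out, the leading recipient type with at least 50 cells was arterial-like for Ptger4 and pericyte-like for Ptgir. The receptors were thus sparse, and thinned shares for both stayed at or under 6.43% in every gated type. Ptger4 overlaps Ttc33, a protein-coding gene on the opposite strand with 759 donor and 647 recipient UMIs, and the same limit on strand holds.

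Between donor and recipient cells of the same type, Ptgs2 and Ptgis were lower in donor venous-like cells. In that type the donor level of Ptgs2 was 0.346 of the recipient level (0.306 to 0.390), a log2 difference of -1.53 (-1.71 to -1.36). The donor level of Ptgis was 0.533 of the recipient level (0.466 to 0.608), a log2 difference of -0.91. Ptgs1 was alike, at 0.940 of the recipient level (0.793 to 1.12), and Hpgd was 1.27-fold higher in donor cells (1.21 to 1.33). A gene was counted as apart when the levels differed at least 1.5-fold, the interval excluded equality and the libraries together held at least 20 UMIs, with at least 1 in each. By this rule 2 of the 4 prostaglandin genes with enough UMIs were apart in venous-like cells, both lower in the donor library, where 8.97% of 9041 genes were apart, 3.78% lower and 5.19% higher in the donor library. With 2-fold in place of 1.5-fold only Ptgs2 was left.

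Several venous markers moved with this result. Of 9 venous markers, 4 were lower in donor venous-like cells and none was higher, and their summed level was 9112 CPM in the donor library and 12169 CPM in the recipient library. Selp, P-selectin, had 220 CPM in donor and 603 CPM in recipient venous-like cells, and Vcam1, an adhesion molecule, had 621 and 1591 CPM. Slc6a2, the noradrenaline transporter, went the other way, with 777 CPM in donor and 527 CPM in recipient venous-like cells, 1.476-fold higher in the donor library (1.33 to 1.64) and just under the 1.5-fold limit. Of 10 aerocyte markers, 7 were higher in donor venous-like cells, with a summed level of 1194 CPM in the donor library and 413 CPM in the recipient library; Car4 had 173 and 25.3 CPM. The summed level of 8 mesenchymal markers was 5.09 CPM in donor and 149 CPM in recipient venous-like cells, with Col1a2, Pdgfra and Mfap4 at 0 in the donor cells. In venous-like cells with no UMI of Car4 or Ednrb, another aerocyte marker, Ptgs2 was at 259 CPM in 97 donor cells and 785 CPM in 86 recipient cells, 0.330 of the recipient level. In those with a Selp UMI it was at 432 CPM in 44 donor cells and 1015 CPM in 60 recipient cells, 0.425 of the recipient level. Ptgis was at 398 CPM in the donor and 546 CPM in the recipient cells with a Selp UMI, and no longer 1.5-fold apart. Without a Selp UMI it was at 225 CPM in 134 donor cells and 481 CPM in 50 recipient cells, 0.467 of the recipient level. With an estimate of free RNA subtracted, 4.45% of donor and 3.51% of recipient venous-like UMIs, the log2 differences were -1.53 for Ptgs2 and -0.90 for Ptgis; the part of the venous and aerocyte markers was not tested further.

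**Figure D2:**
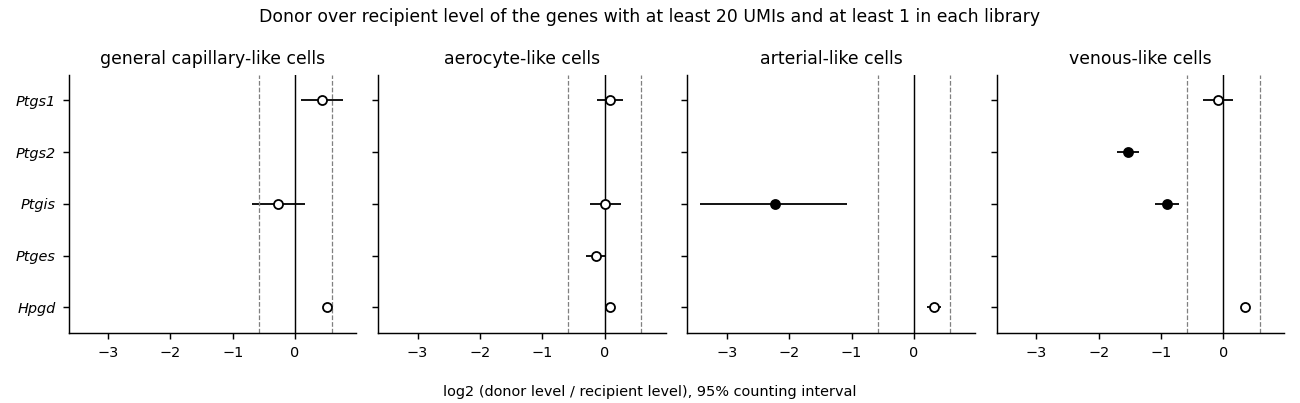
Log2 of the donor level over the recipient level, with 95% counting intervals, for the genes with enough UMIs in each of the 4 types; filled points were counted as apart, and dashed lines mark a 1.5-fold difference. Ptgs2 (-1.53) and Ptgis (-0.91) lie left of 0 in venous-like cells, and the Hpgd points lie right of 0 in all 4 types.

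In general capillary-like cells 0 of 3 genes with enough UMIs were apart, where 8.10% of 11526 genes were, 4.76% lower and 3.34% higher in the donor library. Hpgd was 1.43-fold higher in donor general capillary-like cells (1.39 to 1.476), just under the limit, and passed it when cells were thinned or weighted equally. It also passed with the UMIs of the 3 highest cells left out. That setting takes 3 cells from 1894 donor and from 269 recipient cells and keeps the total UMIs. It thus lowers the recipient level more and says little here. Ptgs1 was 1.34-fold higher in donor general capillary-like cells (1.07 to 1.70). The summed level of the 4 platelet markers there was 15.1 CPM in the donor and 7.74 CPM in the recipient library. In aerocyte-like cells, where Ptgs1 was 1.07-fold, it was 25.3 and 7.69 CPM. The part of platelets was not tested. In aerocyte-like cells 0 of 4 were apart, where 5.83% of 11758 genes were, 3.74% lower and 2.08% higher in the donor library. Ratios were between 0.908 for Ptges and 1.07 for Ptgs1. In arterial-like cells 1 of 2 was apart, where 9.10% of 7765 genes were, 4.53% lower and 4.57% higher in the donor library. That gene was Ptgis, with 10.6 CPM from 12 UMIs in the donor library and 49.4 CPM from 17 UMIs in the recipient library. The donor level was 0.214 of the recipient level (0.0931 to 0.474), a log2 difference of -2.23, which passed the 2-fold limit too. The 3 highest recipient cells held 58.8% of those 17 UMIs. It was not apart after thinning (log2 -1.85) or without the 3 highest cells of each library (log2 -1.72). A single recipient arterial-like cell held 37 UMIs of mast cell markers, and 0 of the Ptgis and Ptger4 UMIs were in it. The median log2 ratio of the genes with enough UMIs was 0.42 in general capillary-like, 0.05 in aerocyte-like and -0.50 in venous-like cells, beside 0.01, -0.02 and 0.04 over all genes with enough UMIs.

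Ptgs2 was uneven among venous-like cells of both libraries. It was detected in 48 of 178 donor cells (27.0%, 20.6 to 34.1) and in 58 of 110 recipient cells (52.7%, 43.0 to 62.3), and the highest cell had 55 UMIs in the donor and 52 UMIs in the recipient library. Cells with at least 10 UMIs were 9.55% of the donor and 20.9% of the recipient venous-like cells and held 80.4% and 82.6% of the type's Ptgs2 UMIs. Among cells with a UMI the level was 800 CPM in the donor and 1329 CPM in the recipient library. The donor library thus had both a smaller share of cells with Ptgs2 and a lower level in them. Without the 3 highest cells of each library the log2 difference was -1.74.

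**Figure D3:**
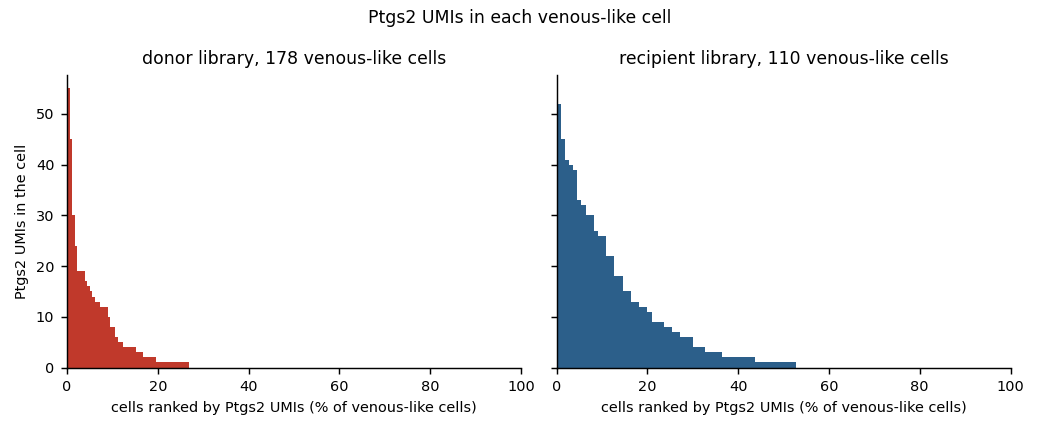
Ptgs2 UMIs (vertical axis) in each venous-like cell, ranked from the highest down and placed by percent of cells, in the donor library (left, 178 cells) and the recipient library (right, 110 cells). The bars end at 27.0% of donor and 52.7% of recipient cells, and the tallest stand at 55 and 52 UMIs.

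Other genes were then compared between venous-like cells with and without a Ptgs2 UMI. Cells with a UMI were deeper, with a median of 10340 against 7112 UMIs in the donor library and 8467 against 6680 in the recipient library, so shares of cells differ with depth and levels are given as CPM. Ptgis was at 522 CPM in donor cells with Ptgs2 and 150 CPM in donor cells without it, 3.49-fold (2.85 to 4.27). In the recipient library it was at 532 CPM in cells with Ptgs2 and 502 CPM in cells without it, 1.06-fold (0.877 to 1.28). Ptgis in donor cells with Ptgs2 was therefore close to the recipient level, and the low donor values were in the 130 cells without Ptgs2. Hpgd was lower where Ptgs2 was detected in both libraries, at 3230 against 4097 CPM in donor cells and 2683 against 3446 CPM in recipient cells. Ptgs1 was alike in the donor cells (244 and 222 CPM) and in the recipient cells (260 and 223 CPM), with intervals of the fold that include 1. Pla2g4a, the cytosolic phospholipase that frees arachidonic acid, was at 125 CPM with and 27.1 CPM without Ptgs2 in donor cells, 4.62-fold (2.93 to 7.45). In recipient cells it was at 109 and 67.9 CPM, and the interval of that fold reached 0.994. Selp was 4.68-fold higher with Ptgs2 in donor cells (457 and 97.6 CPM) and 1.88-fold higher in recipient cells (744 and 397 CPM). Whether these folds differ between the libraries was not tested, and a cell without a UMI may still hold the transcript at this depth.

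**Figure D4:**
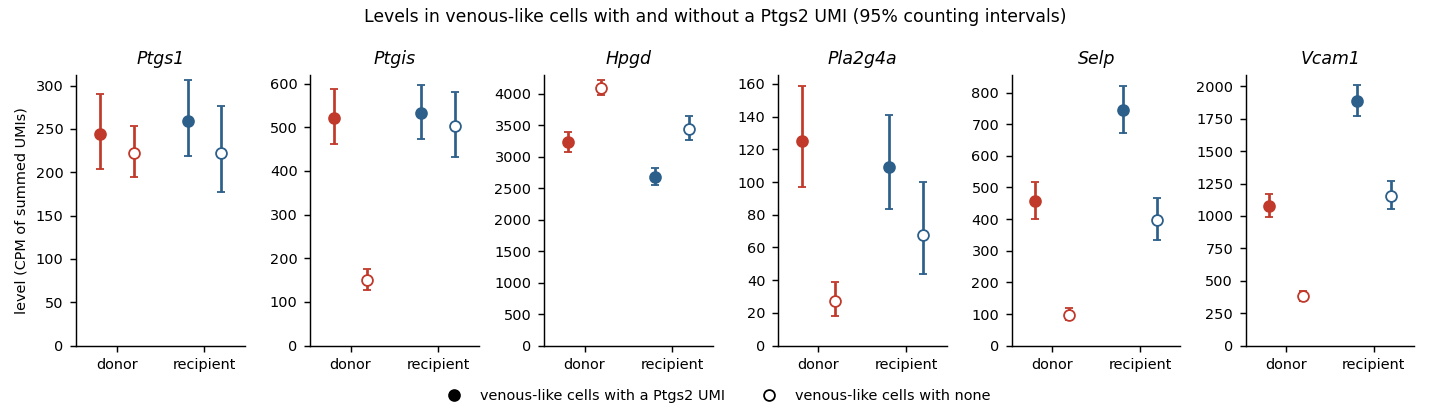
Levels of 6 genes, in CPM of summed UMIs with 95% counting intervals, in venous-like cells with (filled) and without (open) a Ptgs2 UMI, donor library left and recipient library right in each panel. Ptgis stands at 522 and 150 CPM in donor cells, whereas the recipient values, 532 and 502 CPM, overlap.

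Ptgs2 is an early response gene, and dissociation can induce such genes, so 14 early response genes were set beside it. All 14 had enough UMIs in venous-like cells, where 3 were lower in the donor library (Nr4a1, Hspa1a and Hspa1b), none was higher, and the median log2 ratio was -0.35. Over all genes with enough UMIs in venous-like cells 3.78% were lower and 5.19% higher in the donor library, and the median was 0.04. The other types did not share this direction. The median log2 ratio of the 14 was 0.04 in general capillary-like, 0.40 in aerocyte-like and 0.23 in arterial-like cells. Over all genes with enough UMIs it was 0.01, -0.02 and 0.03 there. Fos had 3959 CPM in donor and 5560 CPM in recipient venous-like cells, and Atf3 had 2149 and 2675 CPM. Over the cell types Fos was highest in recipient alveolar fibroblast-like cells with 7662 CPM, where Ptgs2 had 8.54 CPM. Ier2 (2825 CPM), Ier3 (4585 CPM) and Socs3 (2892 CPM) were highest in recipient venous-like cells, as Ptgs2 was. The rest of the 14 were highest in other types. In venous-like cells Fos was 1.23-fold higher with than without a Ptgs2 UMI in donor cells (1.17 to 1.30) and 1.19-fold higher in recipient cells (1.12 to 1.26). In recipient adventitial fibroblast-like cells it was 1.57-fold higher with Ptgs2 (1.4997 to 1.65), and Atf3 was 1.85-fold higher (1.66 to 2.06). The same 33 adventitial fibroblast-like cells had 354 CPM of Ptgis, against 524 CPM in the 108 without Ptgs2, a ratio of 0.676 (0.563 to 0.808). The part of dissociation in the Ptgs2 difference was not tested.

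Within the capillary types, Ptgs1 and Hpgd also varied with subset markers. General capillary-like cells with a UMI of the tip-like markers Esm1 or Inhbb, 447 donor and 55 recipient cells, had less Ptgs1, at 43.4 CPM against 81.6 CPM in the other donor cells and 3.18 CPM (1 UMI) against 66.4 CPM in the other recipient cells. Hpgd was lower in the same cells, at 0.750 of the level of the others for donor cells (0.733 to 0.766) and 0.611 for recipient cells (0.561 to 0.664). General capillary-like cells with a UMI of Hey1 or Sema3g, markers that lean to arteries, 1681 donor and 227 recipient cells, had Ptgs1 at 0.512 of the others among donor cells and 0.466 among recipient cells. Donor general capillary-like cells with a UMI of Glp1r, 1637 of 1894, had 76.6 CPM of Ptgs1, against 36.2 CPM in the others, and Hpgd was 1.26-fold higher in them (1.22 to 1.29). In the recipient library 252 of 269 cells had Glp1r, and Hpgd was 1.73-fold higher in them (1.4827 to 2.03). In aerocyte-like cells Ptges did not follow the subset markers Il1a or the Serpina3 genes Serpina3k and Serpina3m, and ratios were between 0.992 and 1.20 in both libraries with intervals that include 1. Ptges-positive and Ptges-negative aerocyte-like cells had nearly the same Hpgd, with ratios of 0.984 in donor and 0.967 in recipient cells.

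The rest of the pathway was read from 47 further genes, of which 16 reached 50 CPM in a type with at least 50 cells. Among transport genes, Slco2a1, the prostaglandin transporter that feeds Hpgd, lay in the same endothelial types. It had 1016 and 926 CPM in donor and recipient general capillary-like cells, 1175 and 1256 CPM in aerocyte-like cells, 658 and 494 CPM in arterial-like cells and 896 and 658 CPM in venous-like cells. In fibroblast types and pericyte-like cells of the recipient library it was between 10.1 and 15.6 CPM. Slco3a1, another transporter, was highest in recipient alveolar type 1-like cells with 794 CPM. The order for Slco2a1 differed from that of Hpgd, with aerocyte-like cells at the top for Slco2a1 and at the bottom of the 4 for Hpgd. Among phospholipases 1 of 9 reached 50 CPM, Pla2g4a, with 60.5 CPM in donor and 92.6 CPM in recipient venous-like cells and 60.9 CPM in recipient adventitial fibroblast-like cells. Among types with at least 50 cells, these were also the ones with most Ptgs2. Of the other synthases, Ptges3, Akr1b3 and Cbr1 were spread over all types, with 98.5 to 149.7 CPM for Ptges3, 42.5 to 117 CPM for Akr1b3 and 42.5 to 80.2 CPM for Cbr1. Prxl2b reached 52.1 CPM in recipient myofibroblast-like cells. Tbxas1, thromboxane synthase, had 27.4 CPM in donor and 23.9 CPM in recipient aerocyte-like cells and at most 3.18 CPM in any other type. Hpgds, the other prostaglandin D2 synthase, had at most 5.90 CPM.

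Of the 10 other receptors and receptor partners 4 reached 50 CPM. Tbxa2r, the thromboxane receptor, had 132 CPM in donor and 143 CPM in recipient aerocyte-like cells, the type that also held Tbxas1. Ptger2, the EP2 receptor of prostaglandin E2, had 64.6 CPM in recipient myofibroblast-like cells and 0 UMIs in the 4 endothelial types of the donor library. Ptgfr, the prostaglandin F receptor, had 60.003 CPM in alveolar fibroblast-like and 45.1 CPM in adventitial fibroblast-like cells. Ptgfrn, a protein that binds the F receptor, was broad, with 192 CPM in donor and 230.4 CPM in recipient general capillary-like cells. The prostaglandin D2 receptors Ptgdr and Ptgdr2 had at most 1.31 and 8.30 CPM. Ptger1 and Ptger3, the remaining E receptors, had at most 13.5 and 2.03 CPM. In the leukotriene branch Ltc4s, leukotriene C4 synthase, had 75.1 CPM in donor and 154 CPM in recipient venous-like cells, and the receptor Cysltr1 had 105 CPM in recipient pericyte-like cells. In venous-like cells 3 of the 20 pathway genes with enough UMIs were higher (Ptges2, Ptgfrn and Lta4h) and 4 lower (Pla2g4a, Alox5ap, Ltc4s and Cysltr1) in the donor library, beside 5.19% and 3.78% of all genes with enough UMIs. In general capillary-like cells 3 of 25 were higher and 2 lower, beside 3.34% and 4.76% of all genes. In aerocyte-like cells 0 of 29 were apart, beside 5.83% of all genes. In arterial-like cells 1 of 15 was higher and 1 lower, beside 4.57% and 4.53% of all genes. The median log2 ratio of the pathway genes was 0.09 in general capillary-like, 0.08 in aerocyte-like, 0.41 in arterial-like and 0.22 in venous-like cells, beside 0.01, -0.02, 0.03 and 0.04 over all genes with enough UMIs. Lta4h, leukotriene A4 hydrolase, had 60.7 CPM in donor and 29.1 CPM in recipient arterial-like cells, and 58.8 CPM in donor and 38.1 CPM in recipient general capillary-like cells. Faah, which breaks down an endocannabinoid, had 65.0 CPM in recipient alveolar type 1-like cells. Mgll, which releases arachidonic acid from an endocannabinoid, had 822 CPM in donor and 723 CPM in recipient aerocyte-like cells, against 44.3 and 103 CPM in general capillary-like cells.

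**Figure D5:**
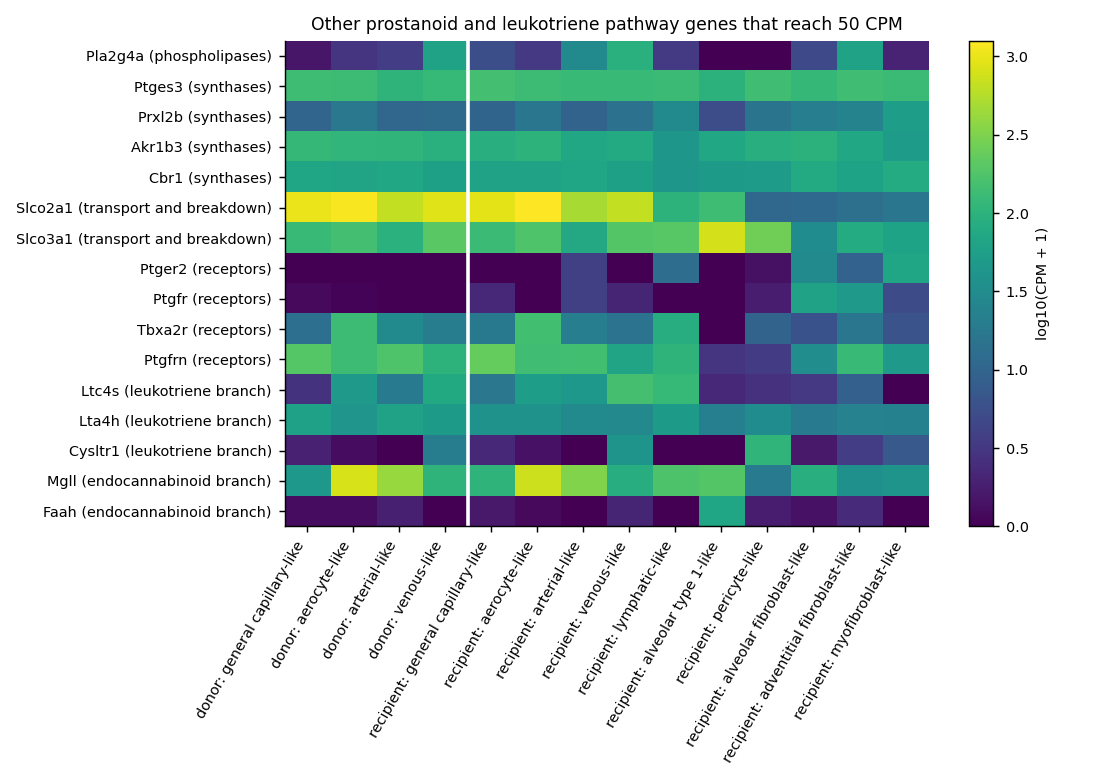
Level, as log10(CPM + 1) by colour, of the 16 further pathway genes that reached 50 CPM, in the 4 donor types (left of the white line) and the 10 recipient types. Slco2a1 is bright in the 4 blood endothelial types of both libraries, Tbxa2r in aerocyte-like cells, and Ptger2 and Ptgfr in fibroblast types.

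Genes with the most similar pattern were sought for each of the 5 genes that reached 50 CPM, among 5921 genes, by Pearson's correlation of log2(CPM + 10) over the 10 recipient types. These correlations describe 10 points that share 1 library and partly 1 gate. Ptgs2 was most like Slc6a2 (0.93), Ackr1 (0.88) and Vegfc (0.88), of which Slc6a2 and Vegfc are markers of the venous gate. Over the 4 donor types the same correlations were 0.9998, 0.9994 and 0.88. Hpgd was most like Pcdh17 (0.98), Adgrl2 (0.96) and Arl4d (0.96), and over the donor types these were 0.97, -0.28 and 0.36. Ptges was most like C1qtnf2 (0.97), Gpx3 (0.91) and Tbx2 (0.91), a marker of the aerocyte gate, with 0.94, 0.997 and 0.9993 in the donor types. Ptgis was most like Mbd1 (0.94), Grb10 (0.92) and Ifrd1 (0.90), with 0.27, 0.94 and 0.90 in the donor types. Ptgs1 was most like Icam1 (0.82), Pim3 (0.80) and Kctd10 (0.79), with 0.86, 0.90 and 0.16 in the donor types. Over the recipient types the likeness was thus closest for Hpgd and least close for Ptgs1.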

How the data were processed

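The deposited matrices hold UMI counts, whole and not normalized, for each gene in each barcode, which the authors produced by Cell Ranger with mm10, per the file headers and the labels' protocols. The headers and the submitters' processing notes give version 4.0.0, the labels' protocol 3.0.1. Of barcodes in both libraries, 728 donor and 48 recipient copies over 5-fold smaller were left out, and both copies of 40 others. Barcodes were also left out (786 donor and 417 recipient) when genes lay beyond 3 scaled median absolute deviations of the library's median on either side, or UMIs or mitochondrial share lay above that limit. Scrublet in scanpy 1.11.5 called 9 donor barcodes (0.142%) and 157 recipient barcodes (4.15%) as doublets. Why so few were called in the donor library was not tested. No doublets were therefore removed in the values reported, and the barcodes ranked highest by Scrublet were removed as an alternative.

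A cell entered a compartment (endothelial, epithelial or mesenchymal) with at least 4 UMIs from at least 3 of its markers, 5-fold those of any other. It took the type with the highest mean standardised marker level, if at least 3 markers were seen, the score was at least 0.5 and the margin to the next at least 0.3. These limits were set after the data had been seen, and the 8 genes, the lists and the markers were chosen with earlier results of these data known. UMIs were summed per library and type with Python 3.11.15, numpy 2.4.6 and scipy 1.17.1. Levels have exact Poisson intervals, shares Clopper-Pearson intervals and ratios exact conditional intervals, all at 95% and for counting error only, and a count of 0 allows up to 3 counts. No p-value was computed, since each group is 1 library. Pathway genes were named where they reached 50 CPM in a type with at least 50 cells, or where they serve the same prostanoid as one of the 8; the others in counts of 5 or fewer were named after their values were seen. Ratios were tested on counts simulated from a Poisson model, the one the intervals assume, so unevenness between cells was not covered. The alternatives were other handling of shared barcodes, cell filters, gates, doublets, scaling, thinning to 2000 UMIs, free RNA (set by the markers of other compartments) and the 3 highest cells. The last left out a gene's UMIs in its 3 highest cells of each library and type but kept the total UMIs. A gene spread evenly over cells thus loses a larger part in the group with fewer cells.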

Additional observations from a re-analysis of the deposited data

Results flagged for a closer look

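Ptgs2 and Ptgds were also seen in cells and barcodes that no comparison used, above the 3 counts that a count of 0 allows. Ptgs2 had 4 UMIs in 4 donor alveolar type 2-like cells, which make surfactant, and 68 UMIs in 19 recipient alveolar type 2-like cells, of which 39 were in 1 cell. The Ptgs2 level in those recipient cells was 193 CPM (150 to 244), above the 77.9 CPM of recipient adventitial fibroblast-like cells. Ptgds had 23 UMIs in the same 19 recipient cells, all in 1 cell. Both groups were under the 50 cells needed for a comparison. Among barcodes outside the cell filter, Ptgs2 had 83 UMIs in 786 donor barcodes and 19 UMIs in 417 recipient barcodes. In the donor library 64 of the 83 lay in 24 barcodes with too many UMIs or genes, and 36 lay in 44 barcodes with epithelial markers.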

How the results depend on the processing

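No paired analysis was possible because each group is 1 library and the labels give no replicate numbers. Of the ratios, 135 of 151 alternative values stayed within the counting interval of the reported value, and none of the called ratios changed direction. Of the levels 446 of 517 did, and the type with the highest level was the same in 128 of 132 cases, over the 12 of 16 pairs of gene and library where it rested on at least 20 UMIs. Ptgs2 in venous-like cells (log2 -1.53) was -1.74 without the 3 highest cells and -1.23 in cells with a Selp UMI; Ptgis (log2 -0.91) was -0.46 in cells with a Selp UMI. The count in venous-like cells (2) was 1 with a 2-fold limit and 1 in cells with a Selp UMI, and the count in arterial-like cells (1) was 0 with thinned cells. Without the UMIs of the 3 highest cells the arterial-like count held Hpgd (log2 0.62, against 0.32 as reported) in place of Ptgis. Ptgis was then left with under 20 UMIs. In general capillary-like cells the count (0) was 1 with the mean of per-cell CPM, 1 with thinned cells and 2 with the 3 highest cells left out. Hpgd there (log2 0.52) was 0.59 with the mean of per-cell CPM, 0.65 with thinned cells, 0.47 with free RNA subtracted and 0.59 without the 3 highest cells. The setting without the 3 highest cells kept the total UMIs and took as many cells from the smaller recipient groups as from the donor groups. Part of the rise of Hpgd in that setting, in arterial-like and general capillary-like cells, therefore follows from the setting itself. The cause of the other shifts was not tested. The selections on Selp and on Car4 and Ednrb and the wider gate margin were chosen after seeing the data. Arterial-like cells are the thinnest group, with 52 recipient cells, and few UMIs limit Ptgds, Ptgir and Ptger4 in all types.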
